A study of Mus musculus with 5 samples.

Results

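The transcripts described here encode enzymes of the later steps of glycolysis, from aldolase to lactate dehydrogenase, measured in mouse brain RNA after in vitro binding to the protein MA-Brent-1. They were chosen by gene symbol from a list of 10 genes (Aldoa, Tpi1, Gapdh, Pgk1, Pgam1, Eno1, Eno2, Pkm, Ldha and Ldhb), taking every probe set that the array's annotation assigns to one such gene alone, apart from the manufacturer's control probe sets. This gave 19 probe sets for 8 genes, out of 34945 probe sets for 18193 genes. Gapdh had control probe sets, described separately, and 3 probe sets listed to several genes, which are not used. The annotation used here lists no probe set for Eno1, which is not analysed here.

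Glycolysis splits glucose into pyruvate and yields ATP. Aldolase cleaves the sugar into trioses, triose phosphate isomerase interconverts them, and the enzymes that follow carry the triose to pyruvate, which lactate dehydrogenase can reduce to lactate. In brain, neurons carry the enolase isoform Eno2, and astrocytes are rich in the aldolase isoform Aldoc. MA-Brent-1 belongs to a family of mRNA export factors, REF/Aly, whose members bind RNA in the nucleus. Deimination converts arginine in a protein to citrulline.

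RNA was hybridised to 5 Affymetrix mouse arrays. The RNA of 2 samples came off the deiminated protein and that of 2 samples off the non-deiminated protein, while 1 sample held the starting brain RNA with no binding step, called input. Each bound group has 1 title that names MA-Brent-1 and 1 that names REFP2. The titles of deiminated replicate 1 and non-deiminated replicate 2 name MA-Brent-1, and those of the other bound arrays name REFP2. Strain, age and number of mice were not stated in the labels, and only the title of non-deiminated replicate 2 speaks of a biological repeat. P-values therefore measure only the spread between these arrays, which may be technical, and the spread of the single input array was taken to equal that of the bound ones.

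All values are MAS5 signals, a linear brightness in arbitrary units. They had been scaled to a common trimmed mean on every array, so a difference is relative to the rest of that array. The median signal still differed, at 102 on the input array and 29.8 to 41.4 on the bound arrays. Differences are log2 differences after adding a pseudocount of 4.18. Errors after ± are standard errors from limma, with n = 2 deiminated, 2 non-deiminated and 1 input array. A probe set is called when its Benjamini-Hochberg adjusted p over 27022 probe sets is under 0.05. Spiked hybridisation controls were higher on the input array (17.04 on the log2 scale) than on any bound array (10.08 to 13.04), with replicate 1 of each bound group low and replicate 2 high. The input array thus stands apart from the other 4, and every comparison with input rests on it. Each cell type marker gene was read from 1 probe set, so its other probe sets do not enter the counts and sums that follow. The 5 neuronal markers Snap25, Syt1, Tubb3, Nefl and Rbfox3 were all called higher in both bound groups than in input, with summed signals of 14380 and 15517 (deiminated), 12942 and 15354 (non-deiminated) and 2937 (input). With each protein, 3 of 5 astrocyte markers, 2 of 4 oligodendrocyte markers and 2 of 5 microglial markers were called higher. Called lower with deiminated protein were 0 of these, 2 of 5 endothelial, 2 of 3 red cell and 2 of 4 liver markers. With non-deiminated protein they were 1 microglial, 1 endothelial, 2 red cell and 1 liver marker. The remaining red cell marker, Alas2, was called higher with each protein (1.80 for deiminated and 1.75 for non-deiminated). Of 5 skeletal muscle markers and 5 testis markers, 1 each passed the filter on dim signals and none was called.

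The first question is which glycolytic transcripts carried more signal among the RNA bound by the protein than in the RNA it was offered. Compared with input, 16 of the 19 probe sets were called higher after elution from deiminated MA-Brent-1 and none was called lower. Of all probe sets tested, 51.5% were called, 24.9% higher and 26.6% lower. For non-deiminated protein, 16 of 19 were likewise called higher and none lower, where 50.5% of all were called, 24.7% higher and 25.7% lower. The median log2 difference of the 19 was 2.23 for deiminated and 2.26 for non-deiminated protein, beside -0.21 and -0.19 over all probe sets tested. Both comparisons use the same input array, so the second adds no separate evidence. Input lay below all 4 bound arrays for 17 of the 19 and above all of them for none, against 39.1% and 45.6% of all probe sets. All 19 passed the filter on dim signals, and all are bright. Among the 3268 probe sets at least as bright as the dimmest of them, a limit set after the values were seen, 62.8% were called higher and 5.26% lower for deiminated protein, and 62.1% and 5.39% for non-deiminated protein. Brightness here is the mean over all 5 arrays, 4 of them bound, so the limit itself favours probe sets with high bound signals.

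**Figure D1:**
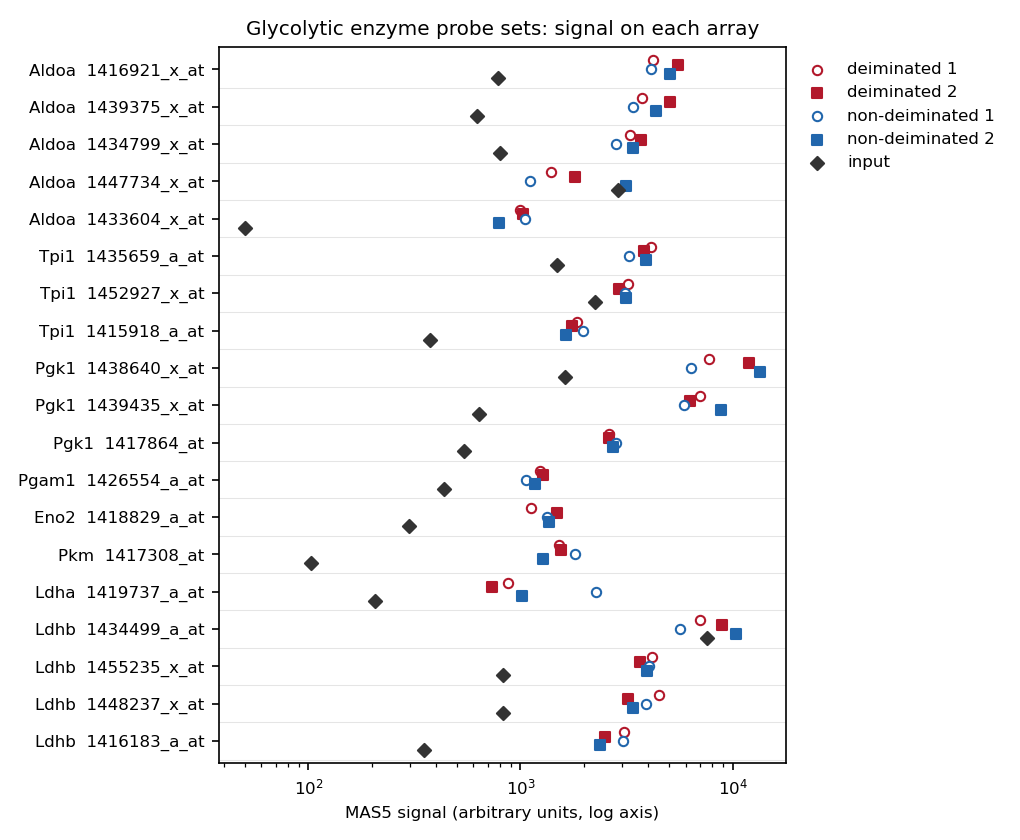
Signal of each of the 19 glycolytic enzyme probe sets (rows, ordered by step) on each array, on a log axis in arbitrary units. Input lies left of all 4 bound arrays for 17 probe sets and among them for Aldoa 1447734_x_at and Ldhb 1434499_a_at.

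Aldoa, the aldolase of muscle and brain that splits fructose bisphosphate, had 5 probe sets. The brightest of those called, 1416921_x_at, read 4222 and 5517 with deiminated protein, 4137 and 5082 with the non-deiminated form and 779.9 in input. The bound groups overlapped and lay far above input, with log2 differences of 2.62 ± 0.44 for deiminated protein (adjusted p = 0.000545) and 2.55 ± 0.44 for the non-deiminated form (adjusted p = 0.000702). For 1439375_x_at the differences were 2.80 with deiminated and 2.62 with non-deiminated protein, and for 1434799_x_at they were 2.12 and 1.96. 1433604_x_at read 997 and 1023 with deiminated protein, 1047 and 788 with the non-deiminated form and 50.02 in input. Its differences of 4.23 ± 0.38 for deiminated and 4.07 ± 0.38 for non-deiminated protein were called. Its input signal lay under the median of that array (102), and without detection calls it is not known whether it was above background, so the size of these differences is uncertain. The remaining probe set, 1447734_x_at, read 1394 and 1799.96 with deiminated protein, 1105 and 3138 with the non-deiminated form and 2888 in input. Input here lay among the bound arrays, and the differences of -0.86 for deiminated (adjusted p = 0.19) and -0.63 for non-deiminated protein (adjusted p = 0.338) did not pass. For deiminated protein this probe set was called lower with a block for the level of the hybridisation controls (adjusted p = 0.0357), without non-deiminated replicate 1 (adjusted p = 0.0371) and without non-deiminated replicate 2 (adjusted p = 0.0328). Over 16 settings it was called lower in 6 for deiminated and in 3 for non-deiminated protein.

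Tpi1, the triose phosphate isomerase, had 3 probe sets, and input was the lowest array for each. 1415918_a_at read 1843 and 1759 with deiminated protein, 1966 and 1645 with the non-deiminated form and 376 in input. It rose by 2.25 ± 0.38 with deiminated (adjusted p = 0.000552) and by 2.24 ± 0.38 with non-deiminated protein (adjusted p = 0.000581). 1435659_a_at read 4137 and 3804 with deiminated protein, 3259 and 3888 with the non-deiminated form and 1481 in input, and rose by 1.42 (adjusted p = 0.0152) and 1.26 (adjusted p = 0.0265). Both calls were lost without deiminated replicate 1 (adjusted p = 0.139 for deiminated and 0.0929 for non-deiminated protein) and without deiminated replicate 2 (adjusted p = 0.101 and 0.0973). A block for the protein name in the title ended both as well (adjusted p = 0.069 and 0.11). 1452927_x_at read 3217 and 2927 with deiminated protein, 3099 and 3135 with the non-deiminated form and 2249.995 in input. Its differences of 0.45 for deiminated and 0.47 for non-deiminated protein did not pass.

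Pgk1, phosphoglycerate kinase, catalyses the first step of the pathway that yields ATP. The probe set 1439435_x_at read 7019 and 6301 with deiminated protein, 5886 and 8796 with the non-deiminated form and 639.6 in input. Its differences were the largest of the 3 Pgk1 probe sets, 3.37 ± 0.47 (10.3-fold) for deiminated and 3.48 ± 0.47 (11.2-fold) for non-deiminated protein. 1438640_x_at read 7715 and 11960.5 with deiminated protein, 6376 and 13455 with the non-deiminated form and 1613 in input, with differences of 2.57 and 2.52. 1417864_at read 2611 and 2622 with deiminated protein, 2810.3 and 2721 with the non-deiminated form and 540.3 in input, with differences of 2.27 and 2.35. All 3 were called in both comparisons, so Pgk1 was the only one of the 4 genes with several probe sets for which each of them was called. After another scaling of the arrays, cyclic loess (described below), 1438640_x_at and 1417864_at lost both calls.

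Pgam1, the phosphoglycerate mutase of brain, moves the phosphate group before enolase acts. It read 1232 and 1272 with deiminated protein, 1066 and 1174 with the non-deiminated form and 434 in input. It rose by 1.52 ± 0.37 with deiminated (adjusted p = 0.00518) and by 1.36 ± 0.37 with non-deiminated protein (adjusted p = 0.00966), the smallest differences among the 4 genes with 1 probe set. Eno2, the neuronal enolase, read 1121 and 1493 with deiminated protein, 1333 and 1364 with the non-deiminated form and 297 in input. It rose by 2.11 ± 0.38 with deiminated (adjusted p = 0.000875) and by 2.17 ± 0.38 with non-deiminated protein (adjusted p = 0.000753).

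Pkm, pyruvate kinase, makes the last ATP of the pathway. It read 1521 and 1555 with deiminated protein, 1805 and 1280.1 with the non-deiminated form and 103 in input. The differences were 3.84 ± 0.38 (adjusted p = 1.02e-05) for deiminated and 3.83 ± 0.38 (adjusted p = 1.1e-05) for non-deiminated protein. The input signal was close to the median of that array (102), and whether it was above background is not known.

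Ldha and Ldhb encode the common subunits of lactate dehydrogenase, the first prominent in muscle and the second in heart. Ldha read 874 and 732 with deiminated protein, 2265 and 1015 with the non-deiminated form and 206 in input. It rose by 1.94 ± 0.46 with deiminated (adjusted p = 0.00481) and by 2.86 ± 0.46 with non-deiminated protein (adjusted p = 0.000429). Ldhb had 4 probe sets, of which 3 were called. 1416183_a_at read 3088 and 2503 with deiminated protein, 3047 and 2375 with the non-deiminated form and 352 in input, a rise of 2.97 with deiminated and 2.92 with non-deiminated protein. For 1455235_x_at the rise was 2.23 with deiminated and 2.26 with non-deiminated protein, and for 1448237_x_at it was 2.19 and 2.12. 1434499_a_at read 7033 and 8865 with deiminated protein, 5633 and 10351 with the non-deiminated form and 7535 in input. Input lay among the bound arrays there, and the differences were 0.07 (95% interval -1.15 to 1.28) for deiminated and 0.02 (-1.20 to 1.24) for non-deiminated protein.

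**Figure D2:**
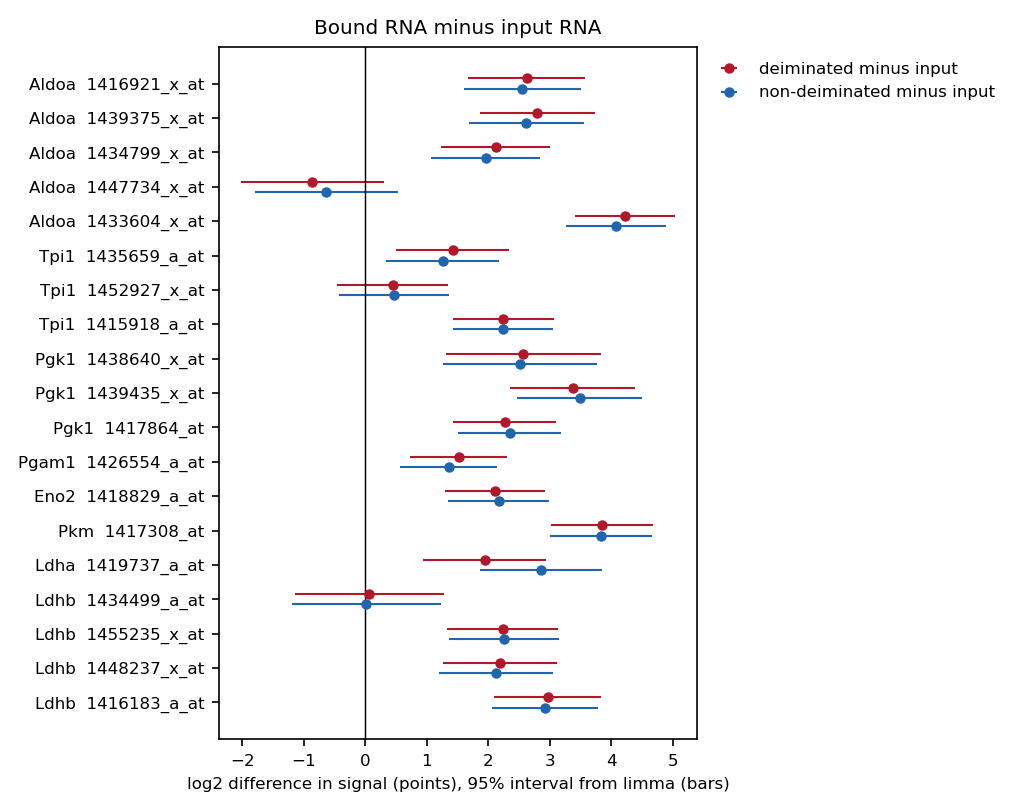
Log2 difference of bound minus input signal for each probe set, with 95% intervals from limma, for deiminated and non-deiminated protein. The intervals of 16 of 19 probe sets lie above 0 in each comparison, and the 3 that reach 0 belong to Aldoa, Tpi1 and Ldhb, genes whose other probe sets were called.

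Probe sets of one gene disagreed most for Aldoa, whose differences spanned 5.09 on the log2 scale for deiminated and 4.70 for non-deiminated protein. The span was 2.90 in both comparisons for Ldhb. It was 1.80 for deiminated and 1.77 for non-deiminated protein for Tpi1, and 1.10 and 1.14 for Pgk1. In the manufacturer's naming, x_at marks probe sets with probes that may also match other sequences, and a_at marks probe sets that match several transcripts of one gene. Of the 10 x_at probe sets 8 were called higher in each comparison, of the 7 a_at probe sets 6, and of the 2 plain ones both. Many glycolytic genes have processed pseudogenes in the mouse, so signal shared with such copies is uncertain.

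Gapdh, which oxidises the triose phosphate, could be followed only through 3 control probe sets along its length, which are outside the fit and have no test. The 3' set read 2500.4 and 2155 with deiminated protein, 3823 and 2158 with the non-deiminated form and 611 in input, a log2 difference from input of 1.92 for deiminated and 2.22 for non-deiminated protein. The middle set read 648 and 676 with deiminated protein, 842 and 619 with the non-deiminated form and 455 in input, with differences of 0.54 and 0.66. The 5' set read 114 and 67.5 with deiminated protein, 121 and 124 with the non-deiminated form and 225 in input, with differences of -1.32 and -0.86. Within this transcript the bound arrays were thus above input at the 3' end and below it at the 5' end. Beta-actin had the opposite order, with 1.27 for deiminated and 1.39 for non-deiminated protein at the 3' end, 1.75 and 2.12 in the middle, and 3.26 and 3.61 at the 5' end. The actin 5' set read only 16.7 in input, under the median of that array (102), so the size of its differences is uncertain. Where the probes of the 19 sets lie along their transcripts is not analysed here, and the part of that position in the differences above was not tested.

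The second question is whether deimination of the protein changed the binding of glycolytic transcripts. None of the 19 probe sets was called, and limma called 0% of all 27022. An unadjusted p under 0.05 was found for 1 of the 19, Ldha, and for 356 of all. The 19 differences ran from -0.92 to 0.18 with a median of 0.05, 12 positive and 7 negative. The median over all probe sets tested was -0.01, with 48.9% positive. Over those at least as bright as the dimmest of the 19 the median was 0.05, with 60.8% positive. The 95% interval lay within 2-fold for 15 of the 19, against 24.2% of all probe sets and 72.2% of those at least as bright as the dimmest of the 19. Across the 4 bound arrays the highest signal was a median of 1.33 times the lowest. This ratio was 1.92 for all probe sets tested and 1.50 for those at least as bright as the dimmest of the 19.

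**Figure D3:**
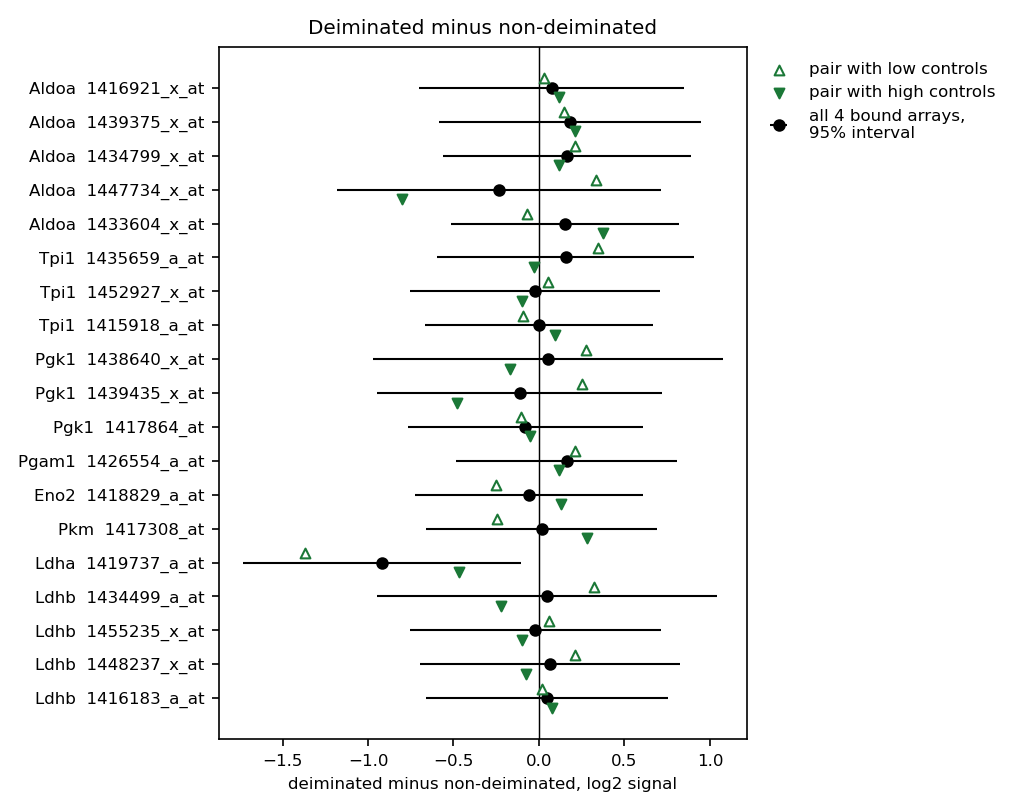
Deiminated minus non-deiminated log2 signal for each probe set (black, with 95% intervals from limma), and the same difference within the pair of arrays with low hybridisation controls (open green) and the pair with high controls (filled green). Only the interval of Ldha does not reach 0, and no probe set passed after adjustment.

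Ldha had the largest difference between the forms. Both deiminated arrays, at 874 and 732, were below both non-deiminated arrays, at 2265 and 1015. The log2 difference was -0.92 (95% interval -1.73 to -0.11) and did not pass (adjusted p = 0.9999). It was -1.37 within the pair of arrays with low controls and -0.47 within the pair with high controls. Within each pair the titles name different proteins, so these differences also set MA-Brent-1 titles against REFP2 titles, in opposite directions. Its size depended on the non-deiminated arrays: without replicate 1 of that group the difference was -0.34, and without replicate 2 it was -1.50. The 4 Ldhb probe sets had differences of -0.02 to 0.07. Groups did not overlap for 2 other probe sets, Pgk1 1417864_at at -0.08 and Pgam1 at 0.16. In all, deiminated lay below for 2 and above for 1 of the 19, against 13.1% and 11.0% of all probe sets, or 24.1% in either direction.

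The bound arrays also differ in their hybridisation controls, which each group holds at a low and a high level. Signals on both arrays with high controls were above those on both arrays with low controls for 7 of the 19 probe sets and below for 4, against 30.0% and 18.9% of all. The gap was -0.94 (low minus high, log2) for Aldoa 1447734_x_at, -0.85 for Pgk1 1438640_x_at and -0.61 for Ldhb 1434499_a_at. Aldoa 1447734_x_at differed by 0.33 between deiminated and non-deiminated protein within the low pair and by -0.80 within the high pair, and Pgk1 1439435_x_at by 0.25 and -0.48. Deiminated was below non-deiminated for 6 of the 19 within the low pair and for 10 within the high pair. The shares were 51.7% and 51.8% of all probe sets, and 36.5% and 50.2% of those at least as bright as the dimmest of the 19. Each pair also sets an array titled MA-Brent-1 against one titled REFP2. The part of the control level or of the name in the title in these values was not tested.

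How far the rise over input holds depended on how the arrays were scaled to each other. After quantile normalisation 15 probe sets were called higher and 1 lower for deiminated protein, and 14 and 1 for non-deiminated protein. After cyclic loess, which rescales bright and dim probe sets separately, 6 were called higher and 3 lower for deiminated protein, and 7 and 3 for non-deiminated protein. The 3 lower ones were Aldoa 1447734_x_at, Tpi1 1452927_x_at and Ldhb 1434499_a_at. Pgam1 lost its call after cyclic loess in both comparisons, and for non-deiminated protein also after quantile normalisation (adjusted p = 0.0903) and without a trend in eBayes (adjusted p = 0.052), and Tpi1 1435659_a_at after either scaling. Cyclic loess also ended the calls of Eno2 (adjusted p = 0.13 for deiminated and 0.0946 for non-deiminated protein). For deiminated protein alone it ended that of Ldha (adjusted p = 0.319). Calls lost in both comparisons were those of Aldoa 1434799_x_at, Tpi1 1415918_a_at, Pgk1 1438640_x_at and 1417864_at, and Ldhb 1455235_x_at and 1448237_x_at. Centring on the median called 18 higher and none lower in both comparisons. Scaling to the hybridisation controls called none with limma, with 18 of 19 at an unadjusted p under 0.05 in each comparison, and its median standard error over all probe sets was 2.69, against 0.59 as deposited.

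These scalings also moved all probe sets together: for deiminated protein the median over all was -0.21 as deposited, 0.51 after quantile normalisation, -0.24 after cyclic loess, 1.29 after centring and 4.31 after control scaling. Relative to that shift the median of the 19 was 2.44 as deposited, 0.97 after quantile normalisation, 0.95 after cyclic loess and 3.19 after control scaling for deiminated protein. For non-deiminated protein these were 2.45, 1.01, 1.10 and 3.22. Leaving control scaling aside, 6 probe sets were called higher in both comparisons under all 16 settings: 3 of Aldoa (1416921_x_at, 1439375_x_at and 1433604_x_at), Pgk1 1439435_x_at, Pkm and Ldhb 1416183_a_at. For deiminated protein Pkm ran from 2.46 to 5.34 over these settings, and Pgam1, which was not among the 6, from 0.12 to 3.01.

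**Figure D4:**
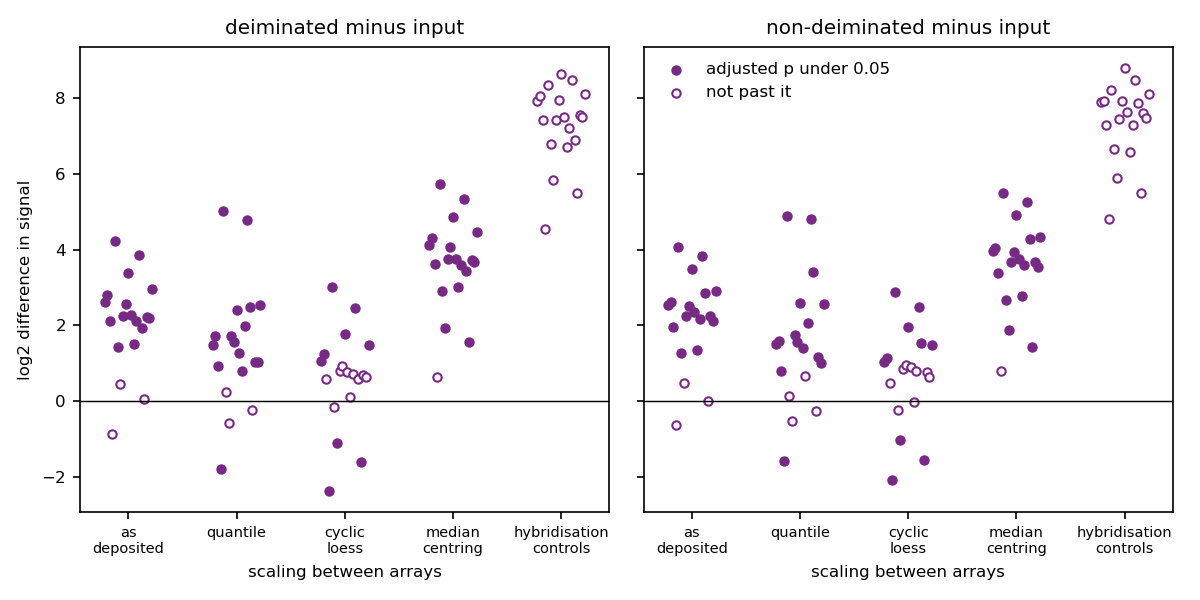
Log2 difference of each of the 19 probe sets from input under the deposited scaling and 4 others (filled, adjusted p under 0.05; open, not past it). After cyclic loess 9 probe sets are filled for deiminated and 10 for non-deiminated protein, and after scaling to the hybridisation controls all lie above 0 and none is filled.

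Other genes of the pathway were taken from a list of 45, of which 38 had a probe set of their own and 33 passed the filter, the brightest probe set standing for each gene. Against input, 14 of the 33 were called higher and 2 lower with deiminated protein, and 12 higher and 3 lower with non-deiminated protein, with medians of 0.99 and 1.01. Over all 63 probe sets of these genes that passed the filter, dimmer ones included, 20 were called higher and 10 lower with deiminated protein (median 0.35), and 18 higher and 7 lower with non-deiminated protein (median 0.44). Of all probe sets tested, 24.9% were called higher and 26.6% lower with deiminated protein, and 24.7% and 25.7% with non-deiminated protein. Between the forms of the protein limma called none, and the median was 0.04. In the early steps, Hk1, the main brain hexokinase, read 1703 and 2028 with deiminated protein, 1757 and 1808 with the non-deiminated form and 1045 in input. Its differences of 0.83 for deiminated and 0.77 for non-deiminated protein did not pass, nor did those of Hk2, an insulin-responsive hexokinase (-0.49 and -0.64). Of the phosphofructokinases, which commit sugar to the pathway, Pfkl rose by 1.58 with deiminated and 1.61 with non-deiminated protein, and Pfkp by 1.47 and 1.12. Their dimmer probe sets past the filter were not called. Pfkl had 0.17 and 0.02 for 1450269_a_at and -1.41 and -1.66 for 1453541_at, and Pfkp had 0.80 and 0.79 for 1437759_at. Pfkm had 0.90 with deiminated protein (adjusted p = 0.0705) and rose by 1.16 with non-deiminated protein (adjusted p = 0.0284).

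Isozymes of the later steps that are typical of other cells or tissues were measured too. Aldoc, the aldolase typical of astrocytes, read 5903 and 5870.2 with deiminated protein, 5887 and 5925 with the non-deiminated form and 846 in input. It rose by 2.79 ± 0.44 with deiminated and 2.80 ± 0.44 with non-deiminated protein, and was the only one of the 6 isozymes past the filter whose brightest probe set was called higher. Its dimmer probe set had 0.44 in both comparisons and did not pass. Pklr, the pyruvate kinase of liver and red cells, read 22.6 and 35.8 with deiminated protein, 26.03 and 39.9 with the non-deiminated form and 199 in input. Its differences were -2.64 (adjusted p = 0.0115) for deiminated and -2.48 (adjusted p = 0.0161) for non-deiminated protein, both called lower. The dimmer Pklr probe set 1421258_a_at had 0.35 and 0.70 and did not pass. Another, 1421259_at, lay under the filter. It read 4.41 and 5.95 with deiminated protein, 6.52 and 11.7 with the non-deiminated form and 55.5 in input. Eno4, an enolase of sperm, read 91.7 and 96.7 with deiminated protein, 55.96 and 41.2 with the non-deiminated form and 189.7 in input. Its difference from input was -0.98 with deiminated protein (adjusted p = 0.16) and -1.89 with non-deiminated protein (adjusted p = 0.0157). The difference between the forms was 0.91 (95% interval -0.09 to 1.91), which did not pass.

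The muscle isozymes Pgam2 and Eno3 did not pass in either comparison with input. For the D-lactate dehydrogenase Ldhd the brightest probe set did not pass, while 1428614_at was called lower, with -4.09 (adjusted p = 0.00142) for deiminated and -3.56 (adjusted p = 0.00343) for non-deiminated protein. The testis isozymes Gapdhs, Pgk2 and Ldhc lay under the filter. Pgk2 read 1.73 and 0.958 with deiminated protein, 0.293 and 3.25 with the non-deiminated form and 34.3 in input. The summed signal of 5 testis markers, Pgk2 and Ldhc among them, was 61.0 and 136 (deiminated), 55.3 and 175 (non-deiminated) and 260.005 (input), and that of 5 skeletal muscle markers was 74.6 and 61.7 (deiminated), 86.6 and 74.3 (non-deiminated) and 510.4 (input). The part of this higher low range of the input array in the differences of the glycolytic genes was not tested.

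**Figure D5:**
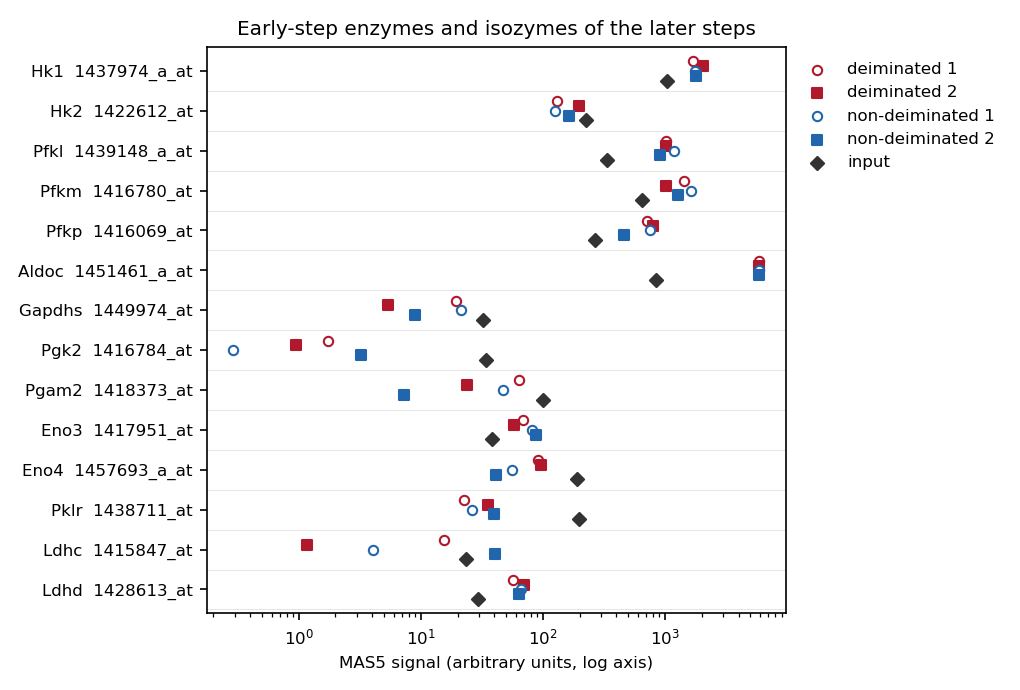
Signal of the brightest probe set of each early-step enzyme and of each isozyme of the later steps on each array, on a log axis in arbitrary units. For Aldoc the input array lies left of all bound arrays, and for Pklr and Pgk2 right of all of them.

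Among the remaining genes of the list, Hif1a, the hypoxia factor that switches on glycolytic genes, read 1395 and 1303 with deiminated protein, 1508 and 1327 with the non-deiminated form and 73.01 in input. It rose by 4.13 ± 0.37 with deiminated (adjusted p = 4.25e-06) and by 4.20 ± 0.37 with non-deiminated protein (adjusted p = 3.91e-06). This input signal too lay under the median of its array, so the size is uncertain. Of the dimmer Hif1a probe sets, 1416035_at was likewise called higher in both comparisons. 1448183_a_at went the other way, with -0.80 for deiminated and -1.22 for non-deiminated protein, and did not pass. 1431981_at lay under the filter. Slc2a3, the neuronal glucose transporter, rose by 2.89 with deiminated and 2.73 with non-deiminated protein, and Pdk1, which inhibits pyruvate dehydrogenase, by 3.03 and 3.10. The dimmer Pdk1 probe sets were not called, with -0.08 to 0.30 for deiminated and -0.62 to 0.24 for non-deiminated protein. Pdhb, a subunit of pyruvate dehydrogenase, rose by 2.04 with deiminated and 1.90 with non-deiminated protein, and Pgam5, a mitochondrial phosphatase related to the mutases, by 2.09 and 2.45. The dimmer Pdhb probe set had -0.37 and -0.62 and was not called. Pdhx, a binding component of the same dehydrogenase, was called lower, with -2.50 for deiminated and -3.60 for non-deiminated protein. Its signals were 46.6 and 72.5 with deiminated protein, 64.7 and 8.05 with the non-deiminated form and 348 in input.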

How the data were processed

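Signal intensities on a linear scale were taken from the deposited table of 45101 probe sets on 5 arrays. Per the submitters' processing notes the tool was MAS5 (version: not given in the sources used here). In the deposited values the mean after trimming 2% at each end was 150.0 on all arrays, and the main setting applied no further normalisation. Symbols came from the platform's annotation: outside 64 control probe sets, 34945 probe sets had 1 symbol, 932 several and 9160 none listed. Of these, 34741 had an Entrez identifier in the reference gene table, through which 0 symbols changed.

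The pseudocount, 4.18, was set to the median signal (41.8) over 10. Probe sets below the 40th percentile of mean log2 signal were left out, and 27022 remained. limma 3.58.1 in R 4.3.3 fitted 1 mean per group (lmFit, eBayes with a trend, 2 residual and 10.9 prior degrees of freedom), and the script was tested on simulated data. The number of arrays limits the precision, and an exact permutation test of 2 arrays against 2 cannot go below p = 0.333. All members were named with every probe set, isozymes and early-step genes where measured, and of the other listed genes up to 4 called per direction and comparison, by moderated t. The members and lists were chosen with earlier results of these data known. Other scalings, filters, pseudocounts, variance models, blocks and subsets of arrays were tried.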

Additional observations from a re-analysis of the deposited data

How the results depend on the processing

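The alternatives were smaller and larger pseudocounts (1.05 and 16.7), other filters, other scalings, eBayes without a trend, a block for the protein name, the compared groups alone and leaving out each bound array. A block for the control level was added after the data were seen. It moved no count of called probe sets by over 1.5 times, but called Aldoa 1447734_x_at lower for deiminated protein and gave 989 probe sets at an unadjusted p under 0.05 between the forms of the protein, against 356. No paired analysis was possible because replicate numbers only follow the order of the samples, so none used them as pairs. The block for the control level happens to join arrays of equal number, and the block for the protein name arrays of unlike number. In the comparisons with input, limma called 13925 probe sets for deiminated protein and 13635 for non-deiminated protein. With no filter the first was 21261, of which 30.8% were higher, against 48.4% as reported. The share of higher calls was 64.6% with the stricter filter, 65.4% after quantile normalisation and 90.3% after median centring. Leaving out bound arrays gave 9226 to 16695 for deiminated protein, the lowest without deiminated replicate 1. Scaling to the hybridisation controls called 0 probe sets in both, and 7110 and 7309 had an unadjusted p under 0.05. Between the forms of the protein limma called 0 as reported and 0 to 24 with single bound arrays left out, the highest without non-deiminated replicate 1 and 2 without non-deiminated replicate 2. Of the glycolytic probe sets 16 were called in each comparison with input, 9 and 10 after cyclic loess and 0 and 0 after control scaling. The cause was not tested.

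Some differences from input changed sign, all but 3 of them on probe sets that had not passed. After quantile normalisation Tpi1 1452927_x_at had -0.58 for deiminated and -0.53 for non-deiminated protein, and Ldhb 1434499_a_at had -0.24 and -0.26. After cyclic loess they had -1.10 and -1.02, and -1.59 and -1.56, while the called Tpi1 1435659_a_at had -0.14 and -0.24 and Pgam1 had -0.0075 for non-deiminated protein. Aldoa 1447734_x_at had 0.63 and 0.79 after median centring and 4.54 and 4.80 after control scaling. With single bound arrays left out, Aldoa 1447734_x_at ran from -1.38 to 0.12 for non-deiminated protein, and Ldhb 1434499_a_at from -0.099 to 0.23 for deiminated and from -0.42 to 0.46 for non-deiminated protein.

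Between the forms of the protein, where none passed, small differences changed sign. Quantile normalisation gave -0.019 for Aldoa 1416921_x_at, -0.036 for Tpi1 1415918_a_at, -0.018 for Pkm and -0.028 for Ldhb 1416183_a_at. Cyclic loess gave -0.039 for Tpi1 1415918_a_at, -0.025 for Pgk1 1438640_x_at, -0.015 for Pkm, -0.032 for Ldhb 1434499_a_at and -0.00011 for Ldhb 1416183_a_at. Median centring gave 0.056 for Tpi1 1452927_x_at, 0.019 for Eno2 and 0.057 for Ldhb 1455235_x_at, and control scaling -0.032 for Tpi1 1415918_a_at and -0.017 for Pkm. With single bound arrays left out, Aldoa ran from -0.12 to 0.27 (1416921_x_at), -0.038 to 0.40 (1439375_x_at), -0.98 to 0.52 (1447734_x_at) and -0.051 to 0.36 (1433604_x_at). Tpi1 ran from -0.091 to 0.046 (1452927_x_at) and -0.13 to 0.13 (1415918_a_at), and Pgk1 from -0.49 to 0.59 (1438640_x_at) and -0.40 to 0.18 (1439435_x_at). Eno2 ran from -0.27 to 0.15 and Pkm from -0.23 to 0.26. Ldhb ran from -0.39 to 0.49 (1434499_a_at), -0.11 to 0.071 (1455235_x_at), -0.18 to 0.31 (1448237_x_at) and -0.13 to 0.23 (1416183_a_at). Ldha stayed between -1.50 and -0.34.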
